A study of Homo sapiens with 12 samples.

Results

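The syndecans SDC1, SDC2, SDC3 and SDC4 and the glypicans GPC1, GPC3, GPC4 and GPC6 were followed in spheroids of 3 lines made from DU145, a long-established line of human prostate cancer cells. These 8 genes were taken by symbol from the 26485 genes of the deposited tables, and the set was chosen with earlier results of these data known. The question was whether the other members followed SDC2, which the authors had picked from these libraries as lower in cells with α2 integrin. The direction of SDC2 given here is therefore not independent evidence that it is lower. The authors also reported that real-time PCR of DU145KO+α2 and DU145KO+vector spheroids bore out this difference. DU145KO cells carry a knock-out of ITGA2, the gene of the α2 integrin subunit. It was made by transfection with a Crispr/Cas9 vector, and no other vector was added to this line. DU145KO+α2 cells are the same cells with an α2 integrin cDNA in the pAWneo2 plasmid, and DU145KO+vector cells carry the empty plasmid. Each is a single stable line, so the α2 cDNA cannot be told apart from other differences between the lines. Both lines with pAWneo2, and not DU145KO, were kept under geneticin. Plasmid and drug thus cannot be told apart from each other between DU145KO+vector and DU145KO. Each line had 4 replicates, 12 samples in all, and every sample was made from spheroids of 8000 cells grown for 72 hours. All 12 samples share the knock-out, and no line with its own intact ITGA2 was analysed here.

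Syndecans are transmembrane proteins and glypicans are held in the outer leaflet of the membrane by a lipid anchor. Both carry long chains of heparan sulfate, a sulfated sugar polymer to which growth factors, matrix proteins and proteases bind. Syndecans act as co-receptors beside integrins in cell adhesion, and glypicans are known for tuning Wnt, Hedgehog and FGF signals. SDC1 and SDC4 are typical of epithelial cells, while SDC2 is better known from mesenchymal cells and SDC3 from nervous tissue.

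The total count ranged from 13948734 to 19988111 over the samples, and 3 counts correspond to 0.150 to 0.215 CPM (counts scaled to the library size, with TMM factors). Of the 14732 genes that passed the filter on low counts, 5 were members: SDC1, SDC2, SDC3, SDC4 and GPC1. GPC3, GPC4 and GPC6 did not pass it. The mean CPM of ITGA2 was 20.7 ± 4.16 (SD, n = 4) in DU145KO and 17.6 ± 3.15 in DU145KO+vector, against 305 ± 33.5 in DU145KO+α2, as the labels of the lines have it. The 6 epithelial markers (EPCAM, CDH1, KRT7, KRT8, KRT18, KRT19) were counted in every sample. Their summed RPKM was 718 to 949 in DU145KO+α2, 931 to 1106 in DU145KO+vector and 965 to 1231 in DU145KO, and its part in the differences of the members was not tested. KLK2, KLK3, HOXB13 and FOLH1, markers of prostate secretory cells, never exceeded 3 counts. Of 8 stromal and endothelial markers 4 never exceeded 3 counts, and the summed RPKM of the list was 1.498 to 2.22. Of 4 blood markers 3 never exceeded 3 counts, and the fourth, CD68, is a lysosomal protein that other cells also express.

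The members fell into an abundant and a scarce set. RPKM, the deposited level per gene length, was used to compare genes. SDC1 was the most abundant member, at 177 ± 21.1 RPKM (SD, n = 4) in DU145KO, 158.5 ± 24.8 in DU145KO+α2 cells and 181 ± 15.2 in DU145KO+vector, and SDC4 was next, at 171 ± 18.5, 153 ± 15.1 and 157 ± 15.3. The samples of these neighbours in the order overlapped in every line, and the order of their means depended on the gene lengths used. GPC1 followed at 46.3 ± 2.38, 44.6 ± 2.31 and 53.5 ± 3.82 RPKM, and SDC3 at 21.3 ± 0.915, 19.5 ± 0.941 and 21.6 ± 1.84. Every GPC1 sample was above every SDC3 sample and below every SDC4 sample. Among the 21039 genes with a count, ranked by mean RPKM over the 12 samples, SDC1 was at position 260, SDC4 at 271, GPC1 at 1469 and SDC3 at 3763. SDC2 was at position 15337, GPC4 at 17427 and GPC6 at 18816, and GPC3 had no count. SDC2 thus had no more than 0.572 RPKM in any sample, against at least 136 for SDC1 and SDC4.

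**Figure D1:**
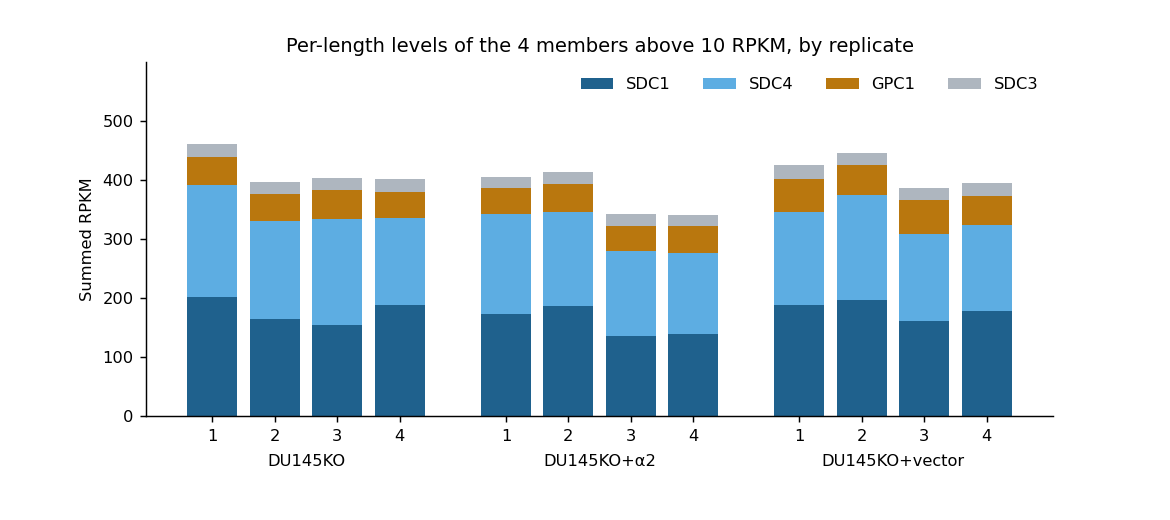
Stacked bars give the deposited RPKM of SDC1, SDC4, GPC1 and SDC3 in each of the 12 samples, grouped by line with the replicate number under each bar. SDC1 and SDC4 made up most of each bar, and the sums lay between 340 and 462 RPKM, with overlap between the lines.

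Syndecans gave 88.8% ± 0.796 (SD, n = 4) of the summed RPKM of the 8 members in DU145KO, 87.0% ± 1.44 in DU145KO+vector and 88.0% ± 1.19 in DU145KO+α2. SDC2 contributed 0.0889% of this sum in DU145KO, 0.0376% in DU145KO+vector and 0.00223% in DU145KO+α2. The total of the 8 members was 416 ± 30.3, 413 ± 27.6 and 375 ± 39.5 RPKM in the same order, and the 3 ranges overlapped. The large relative difference in SDC2 was therefore a difference in a gene that held at most 0.141% of the summed RPKM of the 8 members in any sample.

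The start regions of 3 members are shown because all 3 are rich in CpG while their levels lay far apart. They are SDC4, which is abundant, GPC1, the only glypican member with many counts, and GPC4, which had at most 8 counts in a sample. Each run is the 250 bases before the annotated RefSeq start (GRCh38.p14, read along the gene's strand), and capitals mark GC boxes, the letters GGGCGG or their reverse complement CCGCCC. The SDC4 run is chr20:45348425-45348674 on the minus strand, the GPC1 run chr2:240435413-240435662 on the plus strand and the GPC4 run chrX:133415490-133415739 on the minus strand.
SDC4: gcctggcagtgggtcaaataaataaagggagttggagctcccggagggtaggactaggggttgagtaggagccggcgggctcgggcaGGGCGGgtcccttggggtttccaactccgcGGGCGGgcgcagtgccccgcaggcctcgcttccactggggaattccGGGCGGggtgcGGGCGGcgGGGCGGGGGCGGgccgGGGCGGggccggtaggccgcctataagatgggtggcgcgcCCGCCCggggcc
GPC1: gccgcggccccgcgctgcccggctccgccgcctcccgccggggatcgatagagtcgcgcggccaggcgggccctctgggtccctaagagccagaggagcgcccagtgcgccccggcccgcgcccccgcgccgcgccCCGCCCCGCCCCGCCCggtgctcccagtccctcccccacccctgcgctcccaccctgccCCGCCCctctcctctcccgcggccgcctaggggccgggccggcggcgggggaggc
GPC4: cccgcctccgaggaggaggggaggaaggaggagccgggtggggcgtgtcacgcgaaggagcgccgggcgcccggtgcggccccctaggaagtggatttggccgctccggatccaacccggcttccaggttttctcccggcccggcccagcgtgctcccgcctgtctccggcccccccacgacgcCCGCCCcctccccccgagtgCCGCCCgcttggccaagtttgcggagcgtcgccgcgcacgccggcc

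These windows held 8, 4 and 2 GC boxes, with overlapping ones counted separately, and 26, 36 and 32 CpG dinucleotides. Over all 35116 promoter windows of the same length, 42.6% had at least 1 GC box on either strand and the median was 11 CpG. The window of SDC3 held 5 GC boxes and 37 CpG, and that of SDC1 nearest to the gene's outermost start held 1 and 23. None of these 5 windows held the TATA letters TATAAA or their reverse complement TTTATA, while 10.7% of all windows held either. The window of GPC6, a gene with few counts like GPC4, differed: it held 0 GC boxes, 6 CpG and 1 TATAAA at 37.6% GC, and 195 of its bases lie in annotated exons, so it is not printed. SDC2 and GPC3 were not used here.

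The scarce syndecan, SDC2, had 20, 18, 33 and 13 counts in replicates 1 to 4 of DU145KO and 19, 7, 4 and 6 in DU145KO+vector. In DU145KO+α2 it had 2, 0, 0 and 0. Every DU145KO+α2 sample was below every sample of the other lines, and the samples of the α2 negative lines overlapped each other. With the counts of a line summed, 2 against 36, the level of SDC2 in DU145KO+α2 was 19.4-fold below that of DU145KO+vector (95% Clopper-Pearson interval 4.99 to 166, counting error only) and 44.5-fold below that of DU145KO (11.95 to 374). In edgeR's quasi-likelihood test the comparison with DU145KO+vector gave an adjusted p of 0.00690 and the one with DU145KO an adjusted p of 0.000402. Both stayed below 0.05 with each of the 12 samples left out in turn. SDC2 passed the filter on low counts through DU145KO, where it was high, and did not pass it when DU145KO+α2 and DU145KO+vector alone were fitted, while a fit without the filter gave adjusted p-values of 0.00279 and 5.84e-05. Both counts of DU145KO+α2 came from its replicate 1. Without that sample the line had 0 counts, and against a floor of 3 counts over the line SDC2 was then at least 9.89-fold lower with DU145KO+vector as the comparator. The bound with DU145KO was at least 22.7-fold lower. Leaving out any 1 other sample gave ratios of 12.8 to 23.7 and of 31.6 to 51.1, the lowest against DU145KO+vector without replicate 1 of that line, which had 19 of its 36 counts. Between the α2 negative lines, DU145KO+vector was at −1.20 on the log2 scale (standard error 0.45) compared to DU145KO, with an adjusted p of 0.196. When the replicate number was a block in the model this value was −1.26, with an adjusted p of 0.0325, so SDC2 passed the threshold there in the blocked fit only. In bulk samples, fewer cells with the transcript and less transcript per cell cannot be told apart.

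**Figure D2:**
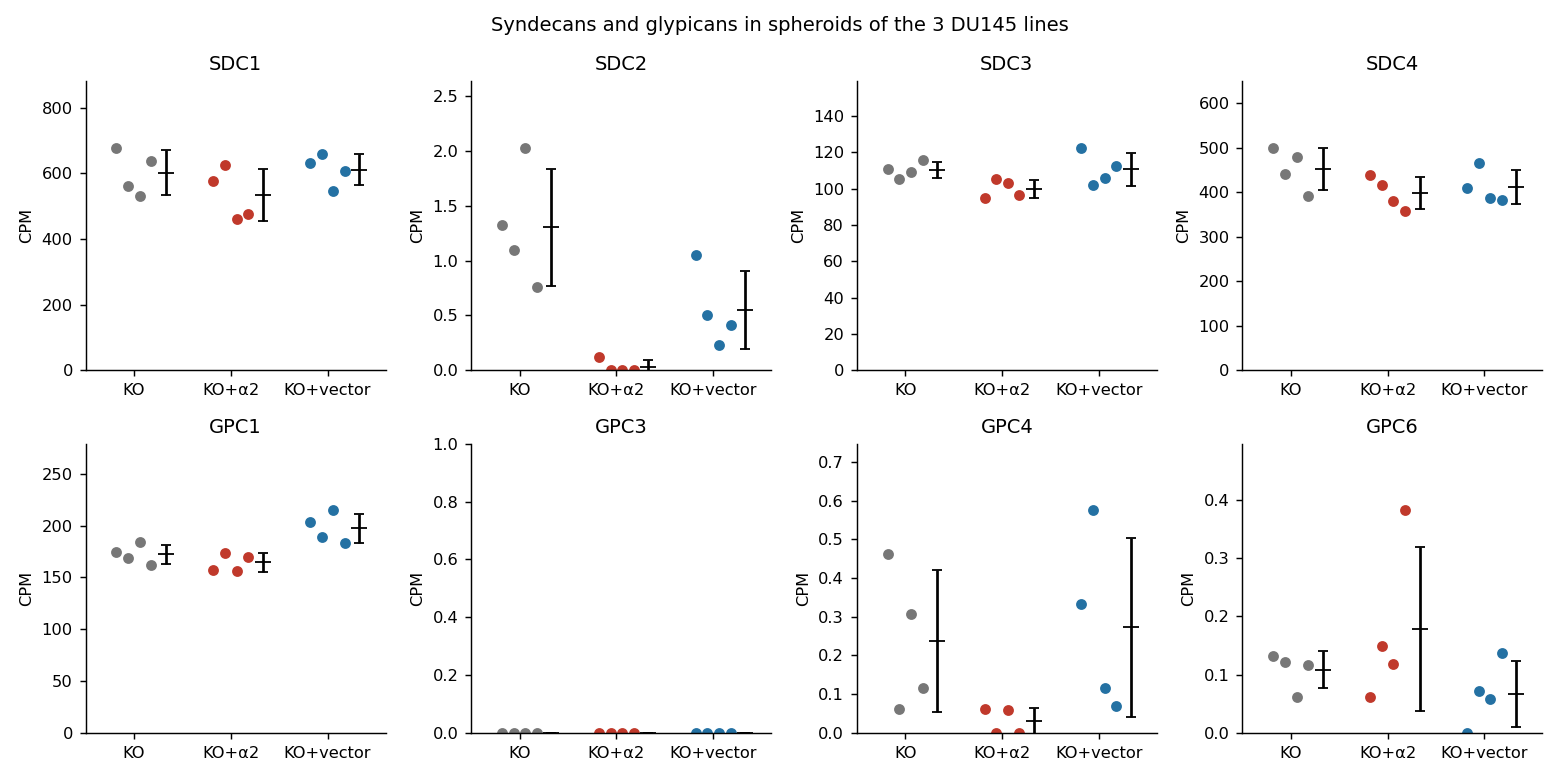
Each panel gives the CPM of a member in the 12 samples (dots, replicates 1 to 4 from left to right) on a linear axis from 0, with the mean and SD of the 4 samples of each line (KO is DU145KO) as a black bar. SDC2 and GPC4 are at or near 0 in all DU145KO+α2 samples, GPC3 is at 0 in every sample, and the 4 abundant members stay within a narrow range.

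None of the abundant syndecans passed the main test, which had no replicate block, in any comparison. SDC1, the main syndecan of epithelia, had 576, 626, 461 and 475 CPM in the 4 samples of DU145KO+α2, 633, 660, 547 and 606 in DU145KO+vector and 678, 562, 531 and 638 in DU145KO. The lines overlapped. Its log2 fold change was −0.19 (95% interval −0.43 to 0.04, adjusted p = 0.296, edgeR) compared to DU145KO+vector and −0.17 (−0.40 to 0.06, adjusted p = 0.406) compared to DU145KO. With the replicate block the first of these was −0.20 with an adjusted p of 0.0388, a fold change below 2. Between DU145KO+vector and DU145KO it was 0.02 (−0.21 to 0.25, adjusted p = 0.955).

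SDC4, the syndecan of focal adhesions that binds protein kinase C alpha, had 438, 417, 381 and 359 CPM in DU145KO+α2, 409, 466, 387 and 382 in DU145KO+vector and 500.0, 440.1, 478 and 391 in DU145KO. Its samples overlapped in every comparison. The log2 fold change was −0.04 (−0.25 to 0.16, adjusted p = 0.835, edgeR) compared to DU145KO+vector and −0.18 (−0.38 to 0.02, adjusted p = 0.290) compared to DU145KO. The second was −0.18 with an adjusted p of 0.0359 in the blocked fit. DU145KO+vector compared to DU145KO gave −0.14 (−0.34 to 0.06, adjusted p = 0.556).

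SDC3 was counted at 94.8, 105, 103 and 96.5 CPM in DU145KO+α2, at 122, 102, 106 and 112 in DU145KO+vector and at 111, 106, 109 and 116 in DU145KO. The DU145KO+α2 samples were all below the DU145KO samples, by a margin under 1 CPM at the nearest pair, and overlapped DU145KO+vector. The log2 fold change was −0.15 (−0.30 to 0.003, adjusted p = 0.211, edgeR) compared to DU145KO+vector and −0.14 (−0.29 to 0.01, adjusted p = 0.255) compared to DU145KO. Between the α2 negative lines the difference was 0.00 (−0.15 to 0.15, adjusted p = 0.991). The intervals of SDC1, SDC3 and SDC4 against DU145KO+vector and DU145KO reached no lower than −0.43 on the log2 scale.

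GPC1, a glypican that is raised in several carcinomas, was the other member called. It was counted at 157, 174, 157 and 170.0 CPM in DU145KO+α2, at 203, 189, 215 and 183 in DU145KO+vector and at 174, 169, 184 and 162 in DU145KO. Every DU145KO+α2 sample was below every DU145KO+vector sample, while DU145KO overlapped both. Compared to DU145KO+vector the log2 fold change was −0.26, a 1.20-fold difference (95% interval −0.42 to −0.11, standard error 0.07, adjusted p = 0.0231, edgeR), and −0.07 (−0.22 to 0.08, adjusted p = 0.663) compared to DU145KO. The first call was lost without replicate 1 or 3 of DU145KO+α2 and without replicate 1 or 3 of DU145KO+vector, with an adjusted p of up to 0.0861 and a log2 fold change between −0.30 and −0.22. DU145KO+vector was at 0.20 (0.05 to 0.35) compared to DU145KO, with an adjusted p of 0.186, or 0.0276 in the blocked fit. The call of GPC1 was thus against DU145KO+vector alone. SDC2 was called against both lines, and in DU145KO+vector the fitted values of SDC2 and GPC1 lay on opposite sides of DU145KO.

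**Figure D3:**
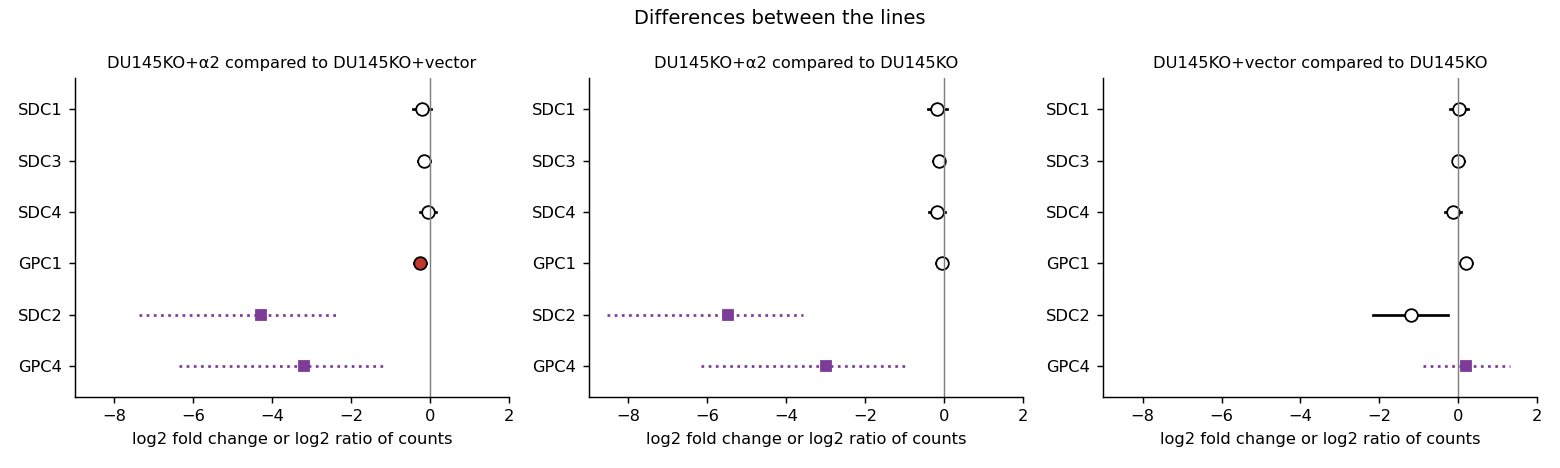
Circles give log2 fold changes from edgeR with 95% intervals for the 3 comparisons, filled where the adjusted p is below 0.05. Purple squares with dotted lines give the log2 ratio of summed counts with its counting interval, used for SDC2 in the comparisons of DU145KO+α2 and for GPC4 throughout. The abundant members lie within 0.3 of 0 and the squares of SDC2 at −4.28 and −5.48.

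Compared to DU145KO+vector, 2 of the 5 members tested were called (SDC2, which passed the filter through its level in DU145KO, and GPC1, both lower), where 11.9% of all genes tested were called, and 1 of them (SDC2) had a fold change above 2, where 2.21% of all genes did. Compared to DU145KO, SDC2 alone was called and had a fold change above 2, beside 8.17% and 2.1% of all genes. Between DU145KO+vector and DU145KO no member was called (edgeR), beside 2.34% of all genes and 0.835% with a fold change above 2, although SDC2 and GPC1 had unadjusted p-values of 0.0160 and 0.0140. The samples of DU145KO+α2 and DU145KO+vector did not overlap for SDC2 and GPC1, as for 17.2% of genes tested. Those of DU145KO+α2 and DU145KO did not overlap for SDC2 and SDC3, as for 12.9%, and no member tested separated DU145KO+vector from DU145KO, as 8.76% of genes did. The comparisons share their samples, so their calls are not separate evidence. All calls counted here are from the fit without the replicate block.

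Of the glypicans with few counts, GPC4 went the same way as SDC2 at a still lower level. It had 7, 1, 5 and 2 counts in DU145KO, 6, 8, 2 and 1 in DU145KO+vector and 1, 0, 1 and 0 in DU145KO+α2. In summed counts, 2 against 17, its level in DU145KO+α2 was 9.15-fold below that of DU145KO+vector (95% Clopper-Pearson interval 2.17 to 81.6, counting error only) and 7.95-fold below that of DU145KO (1.85 to 71.7). Single samples touched, since replicate 4 of DU145KO+vector and replicate 2 of DU145KO had 1 count each, as had replicates 1 and 3 of DU145KO+α2. In a fit without the filter on low counts, over 21039 genes, its adjusted p was 0.0626 compared to DU145KO+vector and 0.119 compared to DU145KO (edgeR), and 0.0253 and 0.0459 with the replicate block, a fit chosen after seeing the data. DU145KO+vector and DU145KO had 17 and 15 counts, a ratio with an interval of 0.540 to 2.47, without the lower level that SDC2 had in DU145KO+vector. GPC4 therefore passed the threshold only in the fits that left the filter out and blocked on the replicate number.

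GPC6 had 2, 2, 1 and 2 counts in DU145KO, 1, 3, 2 and 6 in DU145KO+α2 and 0, 1, 1 and 2 in DU145KO+vector. The 12 summed counts in DU145KO+α2 against 4 in DU145KO+vector gave a ratio of 2.79 (0.845 to 11.9), whose interval includes 1. Without the filter the adjusted p was 0.372, 0.684 and 0.793 in the 3 comparisons (edgeR). An antisense transcript covers 7.18% of the exon bases of GPC6 in the annotation, and whether the counting used the strand is not stated. GPC3, an oncofetal glypican, had 0 counts in all 12 samples, which allows up to 3 counts, or 0.150 to 0.215 CPM, in a sample.

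The profile of SDC2 over the 12 samples was set against those of 12851 genes by the root mean square of the difference of their log2 CPM, each centred on its own mean. Among the most similar were SERPINB5, the serpin maspin (0.605), and SAMD9 (0.631). In this order SDC4 was at position 1536, SDC1 at 1726, SDC3 at 2212 and GPC1 at 3228, with differences of 1.35 to 1.39. A gene with the same value in every sample would differ from SDC2 by 1.43, so these positions lay close to that of a flat profile.

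On chromosome 8, 39 tested genes start within 5 megabases of SDC2 (chr8:96493813-96611790, GRCh38, plus strand). Their median log2 fold change was −0.04 compared to DU145KO+vector and −0.06 compared to DU145KO, beside −0.006 and −0.003 over all genes tested. Of these 39 genes, 1 was called higher and 4 lower in the first comparison and 4 lower in the second, beside 11.9% and 8.17% of all genes called. The largest called differences among these neighbours were those of MATN2, a matrix protein, at −1.08 compared to DU145KO+vector, and of ESRP1, an epithelial splicing regulator, at −3.65 compared to DU145KO. Both genes also differed between the α2 negative lines, where MATN2 was at 0.65 (adjusted p = 0.0217, edgeR) and ESRP1 at −3.00 in DU145KO+vector compared to DU145KO. These 2 genes were chosen after their values were seen. CPQ, the tested gene whose start is nearest (0.151 megabases), was at −0.44 compared to DU145KO+vector (adjusted p = 0.0945, edgeR). Compared to DU145KO it was at −0.22 (adjusted p = 0.488, edgeR). The part of the region in the low counts of SDC2 in DU145KO+α2 was not tested. Around GPC1, 43 tested genes had a median of −0.04 compared to DU145KO+vector.

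**Figure D4:**
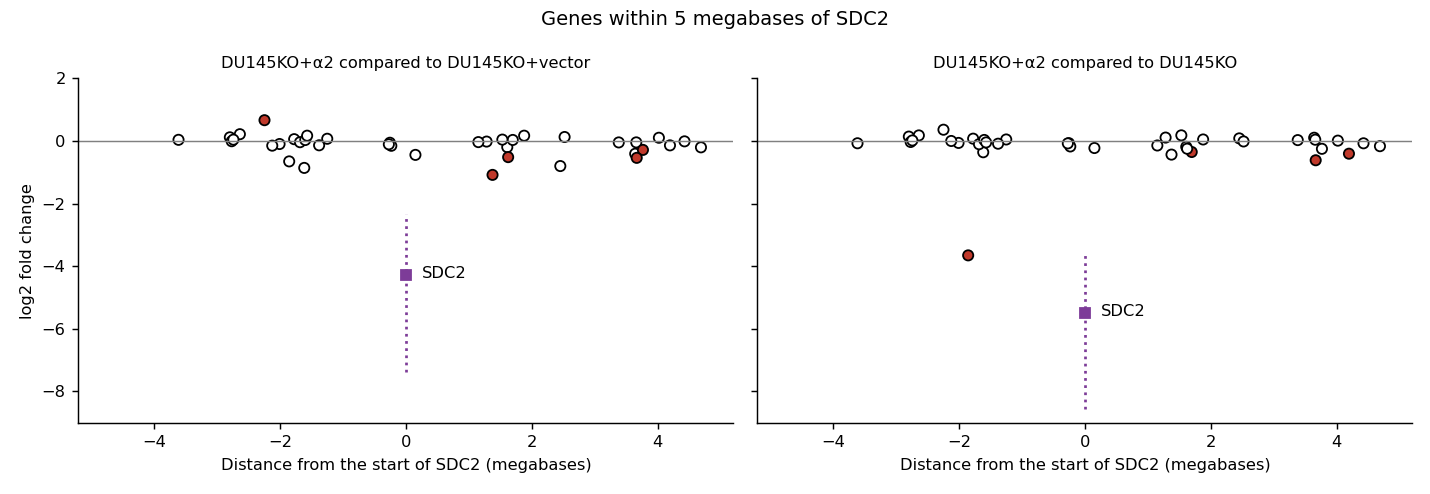
Dots give the log2 fold change of tested genes by the distance of their start from that of SDC2 in megabases, filled where the adjusted p is below 0.05. The purple square with a dotted line gives the log2 ratio of the summed SDC2 counts with its counting interval, at −4.28 and −5.48, while most neighbours lie near 0.

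The rest of the heparan sulfate system was read from 9 lists of 101 genes, of which 71 were tested. Compared to DU145KO+vector, 8 were called higher and 9 lower (23.9%, beside 11.9% of all genes), and compared to DU145KO 6 and 6 (16.9%, beside 8.17%). The median log2 fold change of the 71 was 0.01 and −0.06. With the replicate block the counts were 16 higher and 13 lower, and 13 higher and 12 lower. Between DU145KO+vector and DU145KO none was called, and 5 higher and 7 lower in the blocked fit. The calls went both ways, and MET was the one gene with a fold change above 2.

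Of 8 tested core proteins outside the 8 members that carry heparan sulfate, 2 were called higher and 2 lower compared to DU145KO+vector, and 1 and 1 compared to DU145KO. NRP1, neuropilin 1, a co-receptor of VEGF and semaphorins, had a mean CPM of 407 ± 23.7 (SD, n = 4) in DU145KO, 398 ± 23.1 in DU145KO+vector and 548 ± 51.0 in DU145KO+α2. It rose by a log2 fold change of 0.46 (adjusted p = 0.00152, edgeR) and 0.43 (adjusted p = 0.00330). AGRN, the basement membrane proteoglycan agrin, had a mean CPM of 489 ± 60.6 in DU145KO, 441 ± 57.0 in DU145KO+vector and 343 ± 25.8 in DU145KO+α2. It fell by 0.36 (adjusted p = 0.0359) and 0.51 (adjusted p = 0.00615), and the first call was lost without replicate 1, 3 or 4 of DU145KO+α2 or replicate 1, 2 or 3 of DU145KO+vector (adjusted p up to 0.117).

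GPC2, a glypican of developing neurons, is not among the 8 members and was added after its values were seen. Its direction against DU145KO+vector was opposite to that of GPC1. It was counted at 14.5, 14.9, 16.4 and 15.1 CPM in DU145KO+α2, at 12.03, 8.04, 11.2 and 10.8 in DU145KO+vector and at 11.6, 11.7, 9.16 and 13.3 in DU145KO. All DU145KO+α2 samples were above all others. Compared to DU145KO+vector it rose by 0.53 on the log2 scale (standard error 0.13, adjusted p = 0.0160, edgeR) and compared to DU145KO its value was 0.41 (adjusted p = 0.0729, or 0.0130 with the block). The first call was lost without replicate 2 of DU145KO+vector (adjusted p = 0.0532). GPC5 had 1 count, in 1 sample of DU145KO+vector.

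The chain is begun on a short linker, and none of the 6 tested linkage enzymes was called in any comparison in the unblocked fit (edgeR, the smallest adjusted p 0.0889 for B3GALT6 compared to DU145KO+vector, which was 0.0221 with the block). Of the 4 tested polymerases, EXT2, which forms the main polymerase with EXT1, had a mean CPM of 128 ± 10.04 (SD, n = 4) in DU145KO, 131 ± 7.23 in DU145KO+vector and 106 ± 4.31 in DU145KO+α2. It fell by 0.30 (adjusted p = 0.00989, edgeR) and 0.27 (adjusted p = 0.0243), and the second call was lost without replicate 1 or 2 of DU145KO or replicate 1, 3 or 4 of DU145KO+α2 (adjusted p up to 0.0901). EXT1 fell by 0.23 compared to DU145KO+vector (adjusted p = 0.0301) and was at −0.02 compared to DU145KO (adjusted p = 0.912). The call of EXT1 was lost without replicate 3 or 4 of DU145KO+α2 or any 1 replicate of DU145KO+vector (adjusted p up to 0.103), and EXT1 was added after its values were seen, as the partner of EXT2. EXTL3, which takes part in chain initiation, rose by 0.47 (adjusted p = 0.000266) and 0.24 (adjusted p = 0.0348). The second call was lost without replicate 1, 3 or 4 of DU145KO or replicate 1, 2 or 4 of DU145KO+α2 (adjusted p up to 0.0970). Exons of the antisense gene EXTL3-AS1 cover 2.06% of its exon bases. The 48 tested genes within 5 megabases of EXTL3 on chromosome 8 had medians of 0.44 and 0.28 in the same comparisons, close to the values of EXTL3 itself, and the part of this regional shift in the difference of EXTL3 was not tested.

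Neither the 6 tested enzymes of chain sulfation and epimerization nor the 5 genes of sulfate donor supply held a call in the unblocked fit of any comparison (edgeR). In the first list NDST1, an N-deacetylase that starts sulfation, was at 0.10 (adjusted p = 0.386) compared to DU145KO+vector and HS6ST1, a 6-O-sulfotransferase, at −0.21 (adjusted p = 0.214). In the second, SLC26A2, a sulfate transporter, was at 0.56 (adjusted p = 0.0742) and PAPSS2, which makes the sulfate donor, at −0.12 (adjusted p = 0.435). In the blocked fit SLC26A2 was called higher compared to DU145KO+vector (adjusted p = 0.0407) and not compared to DU145KO (adjusted p = 0.168). PAPSS2 was called higher there compared to DU145KO (0.22, adjusted p = 0.0181) and not compared to DU145KO+vector (−0.13, adjusted p = 0.135). GLCE, the epimerase of the chain, was called higher with the block in both comparisons (adjusted p = 0.00249 and 0.0137) and was named after its values were seen.

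HPSE, heparanase, the enzyme that cuts heparan sulfate outside cells, was the one call among 6 tested genes of editing and shedding. Its mean CPM was 24.8 ± 2.41 (SD, n = 4) in DU145KO, 25.7 ± 2.19 in DU145KO+vector and 17.5 ± 1.97 in DU145KO+α2, with no overlap between DU145KO+α2 and the others. It fell by 0.55 (adjusted p = 0.00218, edgeR) and 0.50 (adjusted p = 0.00585), and both calls were kept in 12 of 12 fits that left out a sample. In lysosomal breakdown, 2 of 8 tested genes were called lower compared to DU145KO+vector and 1 compared to DU145KO, and none higher. With the block 1 was called higher and 3 lower in the first comparison, and 0 and 3 in the second, beside 3911 and 3286 of all 14732 genes. GUSB, beta-glucuronidase, fell by 0.45 (adjusted p = 0.00132) and 0.41 (adjusted p = 0.00360). NAGLU, the N-acetylglucosaminidase, fell by 0.50 compared to DU145KO+vector (adjusted p = 0.00339) and was at −0.30 compared to DU145KO (adjusted p = 0.0865, or 0.00184 with the block). IDUA, alpha-L-iduronidase, was the gene called higher with the block compared to DU145KO+vector (0.34, adjusted p = 0.0108) and was named after its values were seen. The median of this list was −0.20 and −0.15, beside −0.006 and −0.003 over all genes.

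Among 12 tested partners of the syndecan cytoplasmic tail, TIAM1, a Rac exchange factor, was the one gene called in the unblocked fit. It rose by 0.29 (adjusted p = 0.0370, edgeR) compared to DU145KO+vector and 0.36 (adjusted p = 0.0148) compared to DU145KO, and the first call was lost without replicate 1, 2 or 3 of either line (adjusted p up to 0.100). PRKCA, the kinase that SDC4 binds, was at 0.27 (adjusted p = 0.0832) and 0.26 (adjusted p = 0.122), and it was called higher in both comparisons with the block (adjusted p = 0.00126 and 0.00221). The block gave 3 higher and 1 lower of the 12 compared to DU145KO+vector, and 2 and 0 compared to DU145KO. Over all 14732 genes it called 3911 and 3286 in these comparisons.

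Of 16 tested growth factors and receptors that bind heparan sulfate, 4 were called higher and 2 lower compared to DU145KO+vector, and 3 and 2 compared to DU145KO. MET, the receptor of hepatocyte growth factor, had a mean CPM of 90.2 ± 18.5 (SD, n = 4) in DU145KO, 89.0 ± 20.3 in DU145KO+vector and 42.2 ± 4.50 in DU145KO+α2. It fell by 1.08 (adjusted p = 0.00167, edgeR) and 1.10 (adjusted p = 0.00199), in 12 of 12 fits that left out a sample. WNT5A, a Wnt ligand, had a mean CPM of 9.37 ± 0.970 in DU145KO, 7.99 ± 1.73 in DU145KO+vector and 14.5 ± 0.689 in DU145KO+α2. It rose by 0.86 (adjusted p = 0.000742) and 0.63 (adjusted p = 0.00818). FGFR1, an FGF receptor, rose by 0.28 compared to DU145KO+vector (adjusted p = 0.0149), beside a median of 0.26 over 44 tested genes within 5 megabases of it on chromosome 8, and was at 0.14 compared to DU145KO (adjusted p = 0.273). The part of the regional shift in it was not tested, and 0.8% of its exon bases lie in exons of LETM2 on the other strand.

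**Figure D5:**
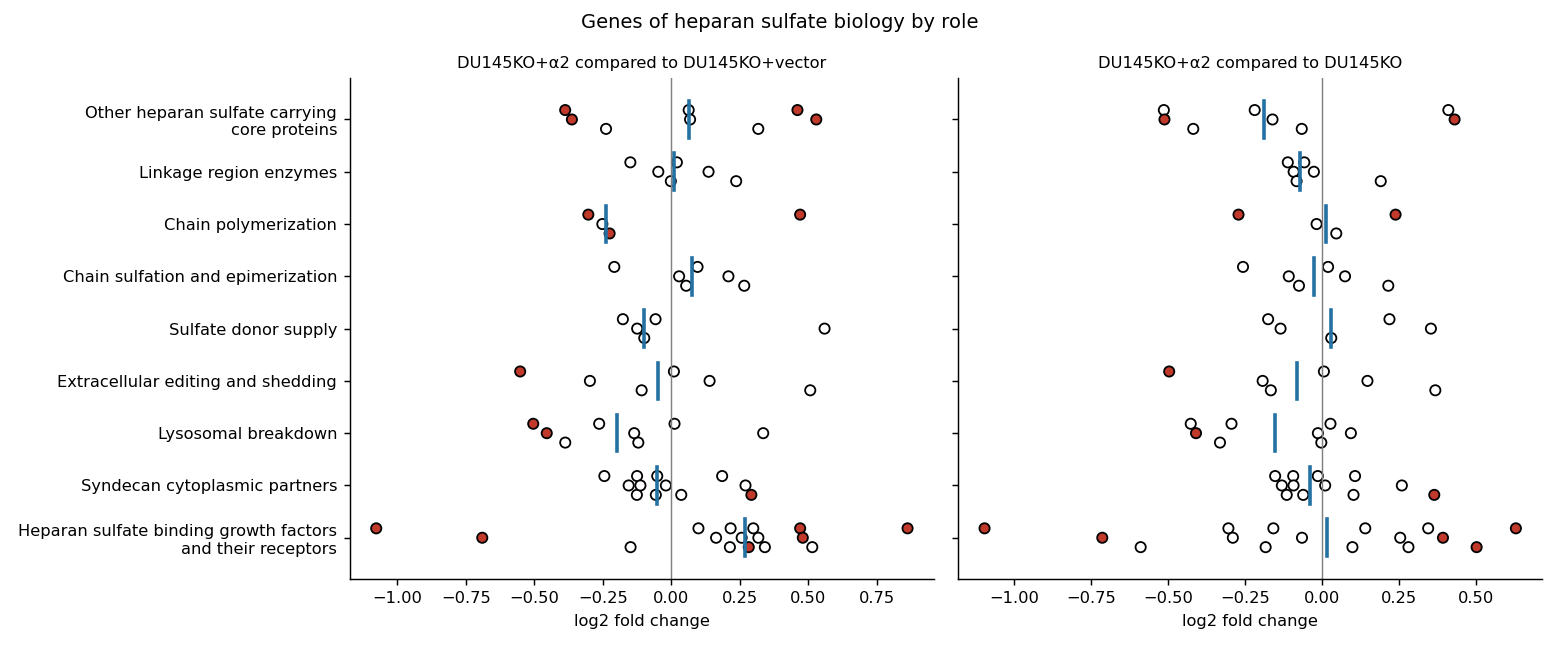
Each dot is a tested gene of 1 of the 9 lists, placed by its log2 fold change in DU145KO+α2 compared to DU145KO+vector (left) or DU145KO (right) and filled where the adjusted p is below 0.05, with the blue bar at the list's median. Calls lie on both sides of 0 for the core proteins, the polymerases and the growth factors and receptors, and on 1 side in the other lists that hold any, and MET is the leftmost dot in both panels, at −1.08 and −1.10.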

How the data were processed

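RNA of spheroids from 3 lines with 4 replicates each was sequenced. The authors prepared libraries with a stranded mRNA kit, made reads with bcl2fastq 1.8.4, aligned the single-end reads to hg38 with TopHat2 2.1.0 and counted them with Subread 1.5.0. The strand setting of the counting is not given in the sources used here. The authors deposited raw counts, used for all tests, and RPKM values, which equal the count over a factor for the sample and a length for the gene (largest relative deviation 4.7e-09 over 11521 genes). Totals per sample were 13948734 to 19988111, and floors and intervals cover counting error only.

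The analysis ran in R 4.3.3, with edgeR 4.0.16 for the main test, DESeq2 1.42.0 and limma 3.58.1 for alternatives, and Python with matplotlib for tables and figures. Genes were kept by filterByExpr with a minimum count of 10 (14732 genes), normalized by TMM and tested by the quasi-likelihood test with the line as the factor and all 12 samples in 1 model. Tests were two-sided, with Benjamini-Hochberg adjustment over the 14732 genes. A gene was called at an adjusted p below 0.05. The authors called genes by a fold change above 2 alone. Samples with the same replicate number deviated from their line means together (12 pairs, r from 0.135 to 0.554, mean 0.378). The mean over 36 pairs with different numbers was −0.126. The numbers in the sample titles were therefore taken to pair the samples in the blocked fit, which was an alternative. The main test did not use this pairing. The labels call the samples replicates, and p-values measure the spread between them, not the spread between separately made lines. Every pair of replicates differed by more than sampling noise.

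The 8 members, the pathway lists and the tests were chosen with earlier results of these data known. Genes named are the members, ITGA2 and, in each list, genes with a fold change above 2 and an adjusted p below 0.05 in any comparison and 2 more with the smallest p. Some genes within the lists and rules used are not reported here. Alternatives were DESeq2's size factors, library size alone, the DESeq2 Wald test, voom with limma, no filter, 10 counts in every sample, the compared lines only, the replicate block and each sample left out. The scripts were tested on simulated counts. Promoters come from RefSeq (GRCh38.p14), gene positions from GENCODE on GRCh38.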

Additional observations from a re-analysis of the deposited data

Results flagged for a closer look

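Of 24 groups of 4 samples, 21 of a member's CPM and 3 of the total count in a line, 1 held a sample far from the others by Dixon's test at the 95% level, where about 1.2 would be given by chance. It was SDC2 in replicate 1 of DU145KO+α2, with 2 counts against 0 in the other replicates of that line. Its gap to the nearest sample over the range of the group was 1.0, which any single nonzero value among zeros gives.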

How the results depend on the processing

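Compared to DU145KO+vector, 2 members were called, and 1 with a filter of 10 counts in every sample or a fit of the compared lines only, since SDC2 did not pass either filter, 3 with the replicate block, and 1 to 2 with a sample left out. Compared to DU145KO, 1 member was called, 0 with 10 counts in every sample (SDC2 not tested) and 2 with the replicate block, and 1 to 1 with a sample left out. Between the α2 negative lines, 0 were called and 2 with the block. The block changed 4 calls, which stand beside their results, and no other call of a member. Of the pathway genes, 17, 12 and 0 were called in the 3 comparisons and 29, 25 and 12 with the block. With a sample left out the first count ran from 9 to 19 (9 without replicate 2 of DU145KO+vector) and the third from 0 to 2. The third was also 1 with library size alone, 2 with the DESeq2 Wald test, 1 without the filter and 1 with the compared lines only. Values near 0 changed sign: SDC3 in DU145KO+vector compared to DU145KO was −0.0017 with 10 counts in every sample and −0.048 to 0.041 with a sample left out, SDC1 there was −0.034 to 0.0899, and SDC4 in DU145KO+α2 compared to DU145KO+vector was −0.091 to 0.022. Apart from these and the leave-one-out losses of GPC1, members kept their direction and side of the threshold. Over all genes the block gave 3911, 3286 and 1980 calls in place of 1754, 1203 and 344, and the third count was 587 with the DESeq2 Wald test and 160 to 528 with a sample left out. Of these, with a fold change above 2, 10 counts in every sample left 178, 160 and 61 of 325, 309 and 123 and the third count was 218 with the block and 79 to 196 with a sample left out. With reference exon lengths GPC1 and SDC3 were at 26.4 and 15.6 RPKM in DU145KO, in the same order. With these lengths the mean of SDC4 was above that of SDC1 in DU145KO and DU145KO+α2, and below it in DU145KO+vector. Leaving out replicate 2 of DU145KO+α2, an alternative chosen after seeing the data, moved no mean RPKM of a member by more than its SD. The causes were not tested. Depth limits GPC3, GPC4, GPC6 and SDC2, which rest on at most 33 counts in a sample.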
